A study of Mus musculus with 90 samples.

Results

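The livers described here are those of wild-type mice on caloric restriction at ZT8 and ZT12, where zeitgeber time (ZT) counts the hours from lights on and ZT12 is lights off. These hours are the late light phase before the daily meal, when corticosterone rises. The libraries were chosen by their labels alone: all 3 wild-type livers on caloric restriction at ZT8 and all 3 at ZT12, which are 6 of the 90 libraries of the series. PolyA RNA of whole liver was sequenced, and the mice were male C57BL/6J. The question was how the glucocorticoid receptor (GR) takes part in what caloric restriction does to the liver. Wild-type (WT) mice carried the floxed GR gene (GRfl/fl) without Cre. GR LKO mice carried the same floxed gene with Alb-Cre, in which the albumin promoter drives Cre in hepatocytes, so that the other cells of the liver keep an intact gene. All mice ate chow and were single-housed from an age of 12 weeks, when the feeding protocol began, and mice of 20 to 21 weeks were used. Food was reduced stepwise over 4 weeks to 40% less calories and was given at ZT12. The control diet was the same chow without restriction, offered only at night during the last week. The libraries of a group were made as biological replicates, and the labels do not name the animals, so that p-values measure the spread between these libraries.

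Corticosterone, the main glucocorticoid of mice, binds GR, a nuclear receptor that moves to the nucleus and acts on genes of glucose, amino acid and lipid metabolism. The liver clock is a feedback loop in which CLOCK and BMAL1 (gene Arntl) turn on the Per, Cry and Rev-erb (Nr1d1) genes, whose products then hold back CLOCK, BMAL1 or the Arntl gene. In a fasting liver low insulin leaves FoxO factors active in the nucleus, while the SREBP factors that drive lipid and sterol synthesis are active after food and when sterols are short. The comparison of ZT12 with ZT8 asks which transcripts change over these hours, and the interactions of time with genotype (GR LKO livers, n = 3 per time) and with diet (WT livers on control diet, n = 4 per time) ask whether that change differs. Neither the GR LKO livers nor those on control diet share a library with the WT livers on caloric restriction. The diets are in separate tables, so only changes, not levels, are compared between them.

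The 6 libraries held between 16249645 and 20788402 estimated counts (18761136, 17766986 and 17862741 at ZT8, and 16249645, 16712119 and 20788402 at ZT12), and levels are given as CPM, counts scaled to the depth of each library, after TMM scaling. The 10 most abundant transcripts took 23.9, 23.1 and 21.4% of the counts at ZT8 and 25.1, 25.0 and 25.8% at ZT12. Hepatocyte markers were abundant in every library, as the tissue label calls for. Alb, the transcript of serum albumin, was at 110997, 94372 and 88368 CPM at ZT8 and 135560.0, 133089 and 138118 CPM at ZT12, and the 7 hepatocyte markers summed to 128943, 107431 and 108528 CPM at ZT8 and to 158160, 158965 and 161756 CPM at ZT12. The groups did not overlap for Alb, but the difference did not pass the test (log2 fold change 0.45, SE 0.16, edgeR adjusted p 0.0841), except without ZT8 replicate 1 (log2 fold change 0.55). Of the 7 markers 1 was called, Hnf4a, which encodes a transcription factor that maintains hepatocyte identity (log2 fold change 0.43). Hnf4a lost its call without ZT8 replicate 1 or 3 or ZT12 replicate 2 or 3, and its log2 fold change ran from 0.40 to 0.47 when 1 library was left out.

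2 of the 6 libraries stood apart by their marker genes. ZT12 replicate 3 held transcripts of the exocrine pancreas: the 10 markers of that tissue, digestive enzymes and colipase, summed to 1295 CPM there, against 0.138 and 0.685 CPM in the other ZT12 libraries and 0.772, 0.372 and 0.368 CPM at ZT8. The most abundant of them, Amy2a5, a pancreatic amylase, was at 420.4 CPM in ZT12 replicate 3 and at 0 in the other 5 libraries. None of the 10 passed the filter on low counts, so none entered the comparison. None of the 10 was at 0 in ZT12 replicate 3, and 8 or 9 of them were at 0 in each of the other 5. ZT8 replicate 2 differed from the other ZT8 livers in the hepatocyte marker Cyp3a11 and in immune transcripts. The sum of the 7 hepatocyte markers did not set it apart, at 107431 CPM against 128943 and 108528 CPM in ZT8 replicates 1 and 3. Cyp3a11, a drug-metabolizing cytochrome P450 and 1 of the 7 hepatocyte markers, was at 3561, 449 and 6008 CPM at ZT8 and 7132, 9017 and 7200.1 CPM at ZT12. The 8 markers of Kupffer and other myeloid cells summed to 373 CPM in ZT8 replicate 2 against 161 and 215 CPM in ZT8 replicates 1 and 3. The 5 neutrophil markers summed to 3.72 CPM there against 0.662 and 0.368 CPM. The chi-square per degree of freedom between ZT8 replicate 2 and the other ZT8 libraries was 70.6 and 68.3, against 23.2 between those. Among the ZT12 libraries it was 38.0 and 29.0 between replicate 2 and the others, against 18.5 between replicates 1 and 3. By this measure ZT12 replicate 2 was the farthest of its group, and it was left out only singly. Counts of 2 or more called genes of a list that moved by more than 1.5 times without 1 library, or without both ZT8 replicate 2 and ZT12 replicate 3, are given with and without it, a count of 0 being followed by the number at an unadjusted p under 0.05. The part of pancreatic or immune RNA in other changes was not tested.

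The level of GR transcript was taken first. Nr3c1, the gene of GR, was at 110.3, 86.8 and 101 CPM at ZT8 and 101, 96.3 and 101 CPM at ZT12 in WT livers on caloric restriction, and the groups overlapped (log2 fold change -0.02, SE 0.10, edgeR adjusted p 0.890). Nr3c1 had a log2 fold change of 0.06, -0.11 and -0.01 without ZT8 replicates 1, 2 and 3 in turn, -0.03, 0.00131 and -0.03 without ZT12 replicates 1, 2 and 3, and -0.12 without both libraries that stood apart. In GR LKO livers on caloric restriction it was at 24.2, 25.8 and 24.3 CPM at ZT8 and at 30.3, 31.4 and 30.0 CPM at ZT12. Every GR LKO library was thus lower than every WT library, as the labels of genotype call for. On control diet it was at 86.8, 96.5, 93.5 and 92.9 CPM at ZT8 and at 82.2, 87.0, 74.5 and 86.9 CPM at ZT12. The GR LKO values are those of whole liver, in which the cells without Cre activity also contribute.

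Between ZT8 and ZT12, 2485 of 11858 genes tested (21.0%) were called by edgeR's quasi-likelihood test at a Benjamini-Hochberg adjusted p under 0.05. Of these 1227 were higher at ZT12 (10.3% of the genes tested) and 1258 were lower (10.6%), and 312 and 480 of the called genes rose or fell by more than a factor of 2. At an unadjusted p under 0.05 there were 4397 genes, and DESeq2 called 2718. The median log2 fold change over all genes tested was -0.01. For 5188 genes (43.8%) the 3 livers at ZT12 lay all above or all below the 3 at ZT8, a share against which the statements on overlap of single genes can be read. 961 of the 2485 genes were called with the same sign in all 6 fits that left out 1 library. Without ZT8 replicate 2 and ZT12 replicate 3 together, an alternative chosen after the data were seen, 951 genes were called, of which 860 were among the 2485.

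Members of the GR target list that passed the test nearly all rose. The gene lists share some members. They were chosen with earlier results of these data known, so their called shares are a description and not a test. Of the 40 genes of the GR target list, all tested, 22 were higher at ZT12, 1 was lower and 17 did not pass. The median log2 fold change of the list was 0.96, against -0.01 over all genes tested, and its called share was 57.5%, to be set against the 21.0% of all genes tested. Tsc22d3, which encodes the glucocorticoid-induced leucine zipper GILZ, was at 51.7, 61.4 and 56.4 CPM at ZT8 and 208, 242 and 256 CPM at ZT12. The 3 livers at ZT12 were all higher, and the spread within each group was small (log2 fold change 2.03, SE 0.12, edgeR adjusted p 0.000575). Fkbp5, a co-chaperone of GR that dampens its hormone binding, was at 99.4, 160.2 and 137 CPM at ZT8 and 327, 316 and 382 CPM at ZT12 (log2 fold change 1.35, SE 0.18, edgeR adjusted p 0.00454). Tat, the tyrosine aminotransferase gene on which much of the early work on glucocorticoid induction in liver was done, was at 1111, 2183 and 1164 CPM at ZT8 and 5616, 7206 and 6525 CPM at ZT12 (log2 fold change 2.09, SE 0.29, edgeR adjusted p 0.00448). Groups did not overlap for any of these 3 genes, and each was called in all 6 fits that left out 1 library.

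The largest rise in the list after that of G6pc was in Cdkn1a, which encodes the cell cycle inhibitor p21. Cdkn1a (chr17:29090976-29100727, plus strand, mm10) was at 0.772, 1.17 and 0.894 CPM at ZT8 and 37.7, 19.7 and 27.1 CPM at ZT12 (log2 fold change 4.86, SE 0.30, edgeR adjusted p 0.000614). All 3 ZT8 livers were near 1 CPM, and all 3 ZT12 livers were far above them. Ddit4, whose product REDD1 restrains mTORC1, was at 4.03, 7.45 and 3.57 CPM at ZT8 and 31.0, 84.1 and 59.8 CPM at ZT12 (log2 fold change 3.51, SE 0.43, edgeR adjusted p 0.00330). Angptl4, which encodes a secreted inhibitor of lipoprotein lipase, was at 52.5, 71.8 and 63.2 CPM at ZT8 and 252, 279 and 243 CPM at ZT12 (log2 fold change 2.02, SE 0.14, edgeR adjusted p 0.000738). Pdk4, a kinase that switches off pyruvate dehydrogenase, rose by a log2 fold change of 3.07, and Dusp1, a phosphatase of MAP kinases, by 1.98. The 1 member that fell was Arrdc3, an arrestin-domain protein, at 333, 97.0 and 348 CPM at ZT8 and 64.1, 18.3 and 28.3 CPM at ZT12 (log2 fold change -2.84, SE 0.61, edgeR adjusted p 0.0197). Arrdc3 lost its call without ZT8 replicate 1 or 3 or ZT12 replicate 2 or 3, and its log2 fold change ran from -3.49 to -2.51 when 1 library was left out. Per1, a clock gene that is also induced by glucocorticoids, was at 71.9, 111 and 76.8 CPM at ZT8 and 103, 80.6 and 87.7 CPM at ZT12, with groups that overlapped (log2 fold change 0.04, SE 0.18, edgeR adjusted p 0.899). Per1 had a log2 fold change of -0.08, 0.26 and -0.04 without ZT8 replicates 1, 2 and 3 in turn, -0.06, 0.12 and 0.06 without ZT12 replicates 1, 2 and 3, and 0.28 without both libraries that stood apart. Fgf21, a fasting hormone of the liver, was near the detection limit, at 0.1103, 0.426 and 0.578 CPM at ZT8 and 1.38, 0.616 and 0.990 CPM at ZT12, and did not pass although the groups did not overlap (log2 fold change 1.37, SE 0.58, edgeR adjusted p 0.133). Without ZT12 replicate 3 the list had 16 higher genes and no lower one, and without ZT8 replicate 2 it had 24 higher and 1 lower.

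Of 21 genes for gluconeogenesis and glucose release, 20 were tested, 7 were higher at ZT12 and 13 did not pass, with a median log2 fold change of 0.35 and a called share of 35.0%. G6pc (chr11:101367561-101377903, plus strand, mm10), the catalytic subunit of glucose-6-phosphatase that frees glucose for release, had the largest change of the list. It was at 25.8, 51.7 and 16.2 CPM at ZT8 and 585, 1658 and 919 CPM at ZT12 (log2 fold change 5.05, SE 0.58, edgeR adjusted p 0.00270). The ZT12 livers differed among themselves by more than a factor of 2, but the lowest of them was far above the highest ZT8 liver. Pck1, the cytosolic PEP carboxykinase, was already abundant at ZT8, at 2485, 4689 and 2450.4 CPM at ZT8 and 7083, 7142 and 7635 CPM at ZT12 (log2 fold change 1.16, SE 0.26, edgeR adjusted p 0.0237). Pck1 lost its call without ZT8 replicate 1 or 3 or ZT12 replicate 1, 2 or 3, and its log2 fold change ran from 1.00 to 1.54 when 1 library was left out. Got1, the cytosolic aspartate aminotransferase, was at 235, 338 and 193 CPM at ZT8 and 899, 1439 and 1438 CPM at ZT12 (log2 fold change 2.28, SE 0.27, edgeR adjusted p 0.00287). Ppargc1a, a coactivator of fasting genes, rose by 1.05 on the log2 scale. Among 26 tested genes for glycolysis and glycogen 6 were higher and 4 lower (median log2 fold change -0.03, called share 38.5%). Ppp1r3b, a subunit that directs protein phosphatase 1 to glycogen, was at 69.6, 72.5 and 37.9 CPM at ZT8 and 288, 263 and 311 CPM at ZT12 (log2 fold change 2.24, SE 0.24, edgeR adjusted p 0.00219). For glycolysis and glycogen edgeR called 3, 3 and 3 lower without ZT8 replicates 1, 2 and 3 in turn, 3, 3 and 3 lower without ZT12 replicates 1, 2 and 3, and 2 lower without both libraries that stood apart. Medians for glycolysis and glycogen were, in the same order, 0.13, -0.15, -0.02, -0.05, -0.05, 0.00456 and -0.13. Phka2, for glycogen breakdown, was lower by a log2 fold change of -0.89. 

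All 35 genes for amino acid catabolism and the urea cycle were tested, and 12 were higher and 1 lower (median log2 fold change 0.31, called share 37.1%). Besides Tat and Got1, Slc25a15, the mitochondrial ornithine carrier of the urea cycle, was at 223, 210.3 and 209 CPM at ZT8 and 421, 536 and 508 CPM at ZT12 (log2 fold change 1.17, SE 0.12, edgeR adjusted p 0.00169). The 1 lower gene was Cbs, of the pathway from homocysteine to cysteine (log2 fold change -0.51). Cbs lost its call without ZT8 replicate 3 or ZT12 replicate 2 or 3, and its log2 fold change ran from -0.62 to -0.44 when 1 library was left out. For amino acid catabolism and the urea cycle edgeR called 10, 13 and 8 higher without ZT8 replicates 1, 2 and 3 in turn, 11, 9 and 8 higher without ZT12 replicates 1, 2 and 3, and 7 higher without both libraries that stood apart. Of 36 tested genes for fatty acid oxidation and ketogenesis 10 were higher and 26 did not pass (median 0.27, called share 27.8%). Cpt1a, which admits long-chain fatty acids to mitochondria, was at 448, 370.3 and 399 CPM at ZT8 and 508, 776 and 671 CPM at ZT12 (log2 fold change 0.66, SE 0.17, edgeR adjusted p 0.0317). Cpt1a lost its call without ZT8 replicate 1, 2 or 3 or ZT12 replicate 2 or 3, and its log2 fold change ran from 0.52 to 0.82 when 1 library was left out. For fatty acid oxidation and ketogenesis edgeR called 10, 7 and 5 higher without ZT8 replicates 1, 2 and 3 in turn, 6, 4 and 6 higher without ZT12 replicates 1, 2 and 3, and 4 higher without both libraries that stood apart, with a median of 0.21. Ppara, the nuclear receptor for fatty acids that drives many genes of this list, was at 166, 105 and 134 CPM at ZT8 and 162, 186 and 174 CPM at ZT12, with 1 ZT8 liver within the ZT12 range (log2 fold change 0.35, SE 0.16, edgeR adjusted p 0.166). Ppara had a log2 fold change of 0.52, 0.20 and 0.34 without ZT8 replicates 1, 2 and 3 in turn, 0.40, 0.30 and 0.35 without ZT12 replicates 1, 2 and 3, and 0.20 without both libraries that stood apart.

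Insulin and FoxO signaling genes changed in both directions, with 10 of 38 tested genes higher, 3 lower and 25 that did not pass (median log2 fold change 0.08, called share 34.2%). Igfbp1, a secreted binding protein for IGF1 whose gene insulin represses, was at 20.2, 41.5 and 23.1 CPM at ZT8 and 166, 613 and 259 CPM at ZT12 (log2 fold change 3.59, SE 0.54, edgeR adjusted p 0.00621). Foxo1, which encodes the FoxO factor best known for fasting genes in liver, was at 46.4, 41.7 and 47.6 CPM at ZT8 and 104, 116 and 120.2 CPM at ZT12, with little spread in either group (log2 fold change 1.30, SE 0.09, edgeR adjusted p 0.000901). Irs1 and Irs2 encode the adaptors that pass on the insulin signal. Irs1 was at 20.6, 16.2 and 11.8 CPM at ZT8 and 44.6, 39.0 and 38.2 CPM at ZT12 (log2 fold change 1.30, SE 0.19, edgeR adjusted p 0.00558), and Irs2 at 24.1, 27.0 and 24.7 CPM at ZT8 and 40.1, 87.8 and 50.3 CPM at ZT12 (log2 fold change 1.21, SE 0.27, edgeR adjusted p 0.0225). Irs2 lost its call without ZT8 replicate 1, 2 or 3, and its log2 fold change ran from 0.82 to 1.43 when 1 library was left out. Sesn2, a stress-induced inhibitor of mTORC1, rose by 1.64 on the log2 scale and Ccng2, a FoxO target that slows the cell cycle, by 1.52, while Trib3, a pseudokinase that binds AKT, changed by -1.67. For insulin and FoxO signaling edgeR called 1, 2 and 1 lower without ZT8 replicates 1, 2 and 3 in turn, 2, 1 and 1 lower without ZT12 replicates 1, 2 and 3, and 2 lower without both libraries that stood apart. Medians for insulin and FoxO signaling were, in the same order, 0.16, 0.05, 0.13, 0.09, 0.11, 0.11 and 0.05. In the growth hormone and IGF1 list 5 of 21 tested genes were higher (median -0.03, called share 23.8%). For the growth hormone list edgeR called 3, 3 and 5 higher without ZT8 replicates 1, 2 and 3 in turn, 4, 3 and 3 higher without ZT12 replicates 1, 2 and 3, and 2 higher without both libraries that stood apart. Medians for that list were, in the same order, -0.04, 0.02, -0.01, -0.13, -0.05, 0.01 and 0.04. Its called share was near the 21.0% of all genes tested. Igf1, the main product of growth hormone action in liver, was at 500.2, 514 and 479 CPM at ZT8 and 695, 902 and 814 CPM at ZT12 (log2 fold change 0.67, SE 0.12, edgeR adjusted p 0.0110). Socs2 and Bcl6, a feedback inhibitor and a repressor in the same pathway, did not pass, and their groups overlapped: Socs2 was at 16.7, 54.2 and 49.6 CPM at ZT8 and 23.1, 43.1 and 26.0 CPM at ZT12, and Bcl6 at 56.0, 18.7 and 9.41 CPM at ZT8 and 10.7, 32.7 and 9.13 CPM at ZT12. Their log2 fold changes were -0.41 and -0.70, with edgeR adjusted p 0.534 and 0.520. Socs2 had a log2 fold change of -0.78, -0.14 and -0.23 without ZT8 replicates 1, 2 and 3 in turn, -0.24, -0.73 and -0.30 without ZT12 replicates 1, 2 and 3, and -0.03 without both libraries that stood apart. Bcl6 had a log2 fold change of 0.29, -0.92 and -1.11 without ZT8 replicates 1, 2 and 3 in turn, -0.45, -1.51 and -0.38 without ZT12 replicates 1, 2 and 3, and -0.60 without both libraries that stood apart.

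Clock genes changed in both directions. Of 23 tested core clock genes 7 were higher and 6 lower at ZT12 (median log2 fold change -0.18, called share 56.5%). Nfil3 (chr13:52967209-52981073, minus strand, mm10), a repressor that competes with DBP, TEF and HLF for the same DNA sites, was at 3.75, 4.36 and 3.84 CPM at ZT8 and 62.7, 51.8 and 52.0 CPM at ZT12. Its replicates were close in both groups (log2 fold change 3.77, SE 0.13, edgeR adjusted p 3.84e-05). Arntl was at 0.221, 0.692 and 0 CPM at ZT8 and 13.8, 6.16 and 10.6 CPM at ZT12 (log2 fold change 5.01, SE 0.74, edgeR adjusted p 0.00587). Its ZT8 values rest on very few counts, 1 library being at 0, so that the size of the change is less certain than its direction. Cry1, a late repressor of the loop, was at 9.93, 13.8 and 6.73 CPM at ZT8 and 54.7, 43.3 and 44.4 CPM at ZT12 (log2 fold change 2.20, SE 0.25, edgeR adjusted p 0.00252). Among the genes that fell, Dbp, an output activator, was at 44.2, 30.7 and 47.5 CPM at ZT8 and 3.86, 7.26 and 5.83 CPM at ZT12 (log2 fold change -2.87, SE 0.25, edgeR adjusted p 0.00113), and Nr1d1, the repressor REV-ERBα, at 78.6, 51.7 and 92.0 CPM at ZT8 and 16.3, 13.97 and 14.6 CPM at ZT12 (log2 fold change -2.33, SE 0.21, edgeR adjusted p 0.00120). Per3 (log2 fold change -1.64), Tef (-0.74), Ciart (-0.58) and Bhlhe41 (-3.33) were also lower. Ciart lost its call without ZT8 replicate 1, 2 or 3 or ZT12 replicate 1 or 2, and its log2 fold change ran from -0.73 to -0.47 when 1 library was left out. Bhlhe41 lost its call without ZT12 replicate 2, and its log2 fold change ran from -3.99 to -2.94 when 1 library was left out. For the clock edgeR called 5, 6 and 4 higher without ZT8 replicates 1, 2 and 3 in turn, 5, 6 and 5 higher without ZT12 replicates 1, 2 and 3, and 4 higher without both libraries that stood apart. Medians for the clock were, in the same order, -0.15, -0.17, -0.18, -0.26, -0.10, -0.12 and -0.15. Per2 was at 70.0, 68.3 and 45.2 CPM at ZT8 and 65.9, 60.5 and 66.2 CPM at ZT12, with groups that overlapped (log2 fold change 0.05, SE 0.17, edgeR adjusted p 0.863). Per2 had a log2 fold change of 0.16, 0.14 and -0.13 without ZT8 replicates 1, 2 and 3 in turn, 0.03, 0.09 and 0.03 without ZT12 replicates 1, 2 and 3, and 0.12 without both libraries that stood apart. Clock was at 3.53, 6.12 and 7.52 CPM at ZT8 and 41.1, 22.3 and 25.1 CPM at ZT12 and was called (log2 fold change 2.34), but its estimated counts were unstable, at 0 in 4 of the 8 livers on control diet, so that its level is uncertain.

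Over the whole day, sampled every 4 h in WT livers on caloric restriction (n = 3 per time), the interval from ZT8 to ZT12 is set beside the other times here. Arntl was lowest at ZT8 and was at 30.7, 30.5 and 36.3 CPM at ZT20. Nfil3 was at 4.82, 6.26 and 11.7 CPM at ZT4 and at 32.3, 27.0 and 29.8 CPM at ZT16, so that its ZT12 livers were above those of both neighbouring times and its ZT8 livers below those of ZT4. Nr1d1 was highest at ZT4, at 146, 221 and 158 CPM. Tsc22d3 stayed between 40.2 and 61.4 CPM in the 9 livers from ZT0 to ZT8, and no liver of ZT16 or ZT20 reached its ZT12 level. Igfbp1 was at 11.6, 3.22 and 3.37 CPM at ZT16, after food, below every liver of ZT12. Mvd was low at ZT12 only: the 15 livers at the other 5 times lay between 24.8 and 43.1 CPM. These levels over the day are a description and were not tested.

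**Figure D1:**
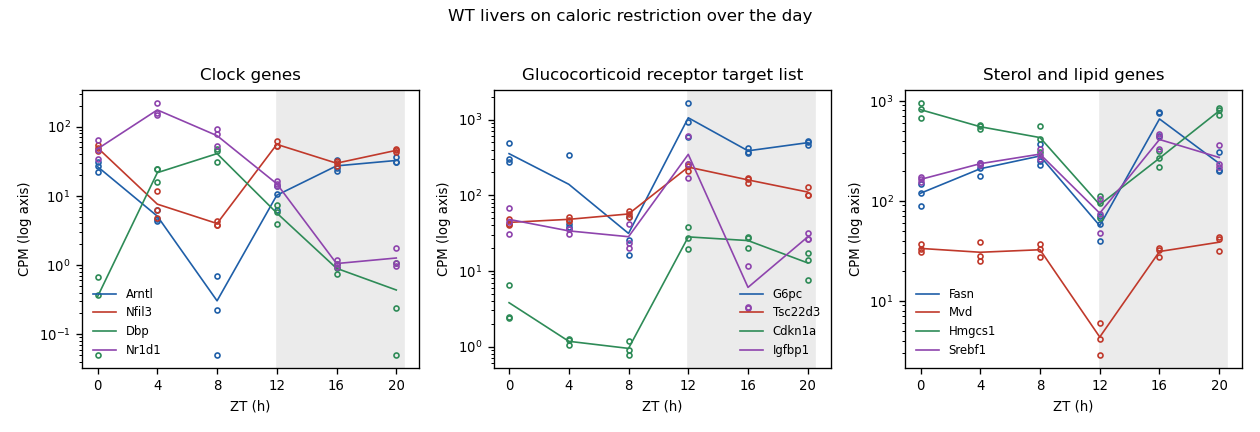
Levels in WT livers on caloric restriction over the day, for 4 clock genes, 4 genes of the GR target list and 4 sterol and lipid genes. The x axis gives ZT in hours and the y axis CPM on a log axis, each open circle is 1 library (n = 3 per time), lines join the means, values under 0.05 CPM are drawn at 0.05, and grey marks the dark phase from ZT12. The ZT12 livers lie above those of ZT0 to ZT8 for Tsc22d3 and Cdkn1a and below those of the other times for Mvd.

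Most transcripts of cholesterol synthesis and uptake fell. All 27 genes for cholesterol synthesis and uptake were tested, and 24 were lower at ZT12, 1 was higher and 2 did not pass. The called share was 92.6%. The median log2 fold change was -1.23, and without ZT8 replicate 2 and ZT12 replicate 3 it was -1.37, with 21 genes lower and 1 higher. Mvd, an enzyme that makes isopentenyl diphosphate, was at 33.1, 27.2 and 37.0 CPM at ZT8 and 6.06, 2.88 and 4.13 CPM at ZT12 (log2 fold change -2.92, SE 0.25, edgeR adjusted p 0.00109), and Hmgcs1, an early enzyme of the pathway, at 559, 310.3 and 417 CPM at ZT8 and 113, 68.0 and 94.1 CPM at ZT12 (log2 fold change -2.25, SE 0.26, edgeR adjusted p 0.00271). The groups did not overlap for either gene. The squalene and lanosterol steps fell too, among them Sqle (log2 fold change -1.64), Lss (-1.76) and Sc5d (-1.98), as did Srebf2, which encodes the factor SREBP2 that drives the pathway (-0.93). The 1 gene that rose was Insig2, whose product holds the SREBP escort protein in the endoplasmic reticulum. Insig2 was at 57.5, 71.2 and 64.5 CPM at ZT8 and 209.7, 121 and 173 CPM at ZT12 (log2 fold change 1.36, SE 0.20, edgeR adjusted p 0.00587).

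Lipogenesis genes were mixed, with 9 of 23 tested genes lower and 3 higher (median log2 fold change -0.16, called share 52.2%). Srebf1, which encodes the lipogenic factor SREBP1, was at 327, 263 and 288 CPM at ZT8 and 104, 48.2 and 74.0 CPM at ZT12 (log2 fold change -1.98, SE 0.26, edgeR adjusted p 0.00399). Fasn, the fatty acid synthase, was at 367, 248 and 227 CPM at ZT8 and 58.0, 39.8 and 71.3 CPM at ZT12 (log2 fold change -2.34, SE 0.26, edgeR adjusted p 0.00250), and Acss2, which makes acetyl-CoA from acetate, changed by -1.79 on the log2 scale. Agpat2, Dgat1 and Lpin1, which act later in the building of triglycerides, were the 3 that rose (log2 fold changes 1.05, 0.47 and 1.15). Lpin1 lost its call without ZT8 replicate 2 or ZT12 replicate 1, 2 or 3, and its log2 fold change ran from 0.86 to 1.44 when 1 library was left out. Dgat1 lost its call without ZT12 replicate 2 or 3, and its log2 fold change ran from 0.39 to 0.52 when 1 library was left out. For lipogenesis edgeR called 4, 2 and 3 higher without ZT8 replicates 1, 2 and 3 in turn, 2, 1 and 1 higher without ZT12 replicates 1, 2 and 3, and 1 higher without both libraries that stood apart. Medians for lipogenesis were, in the same order, -0.11, -0.24, -0.16, -0.18, -0.17, -0.25 and -0.38. Of 24 tested genes for bile acid synthesis and transport 1 was higher, Nr0b2, which encodes the repressor SHP (log2 fold change 0.96), 4 were lower and 19 did not pass (median 0.02, called share 20.8%). Cyp7a1, the rate-limiting enzyme of bile acid synthesis, was at 206, 169 and 274 CPM at ZT8 and 71.3, 183 and 94.7 CPM at ZT12, with 1 ZT12 liver inside the ZT8 range (log2 fold change -0.92, SE 0.35, edgeR adjusted p 0.103). Cyp7a1 was called without ZT12 replicate 2 (log2 fold change -1.40). Nr0b2 lost its call without ZT8 replicate 2 or ZT12 replicate 2, and its log2 fold change ran from 0.78 to 1.21 when 1 library was left out. For bile acid synthesis and transport edgeR called 0 (6 unadjusted), 4 and 0 (6 unadjusted) lower without ZT8 replicates 1, 2 and 3 in turn, 0 (6 unadjusted), 1 and 0 (6 unadjusted) lower without ZT12 replicates 1, 2 and 3, and 1 lower without both libraries that stood apart. Medians for bile acid genes were, in the same order, 0.05, -0.03, -0.02, -0.02, 0.07, -0.02 and -0.06. The called share of that list was near the 21.0% of all genes tested. With all 6 libraries DESeq2 called 4 higher and 6 lower.

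**Figure D2:**
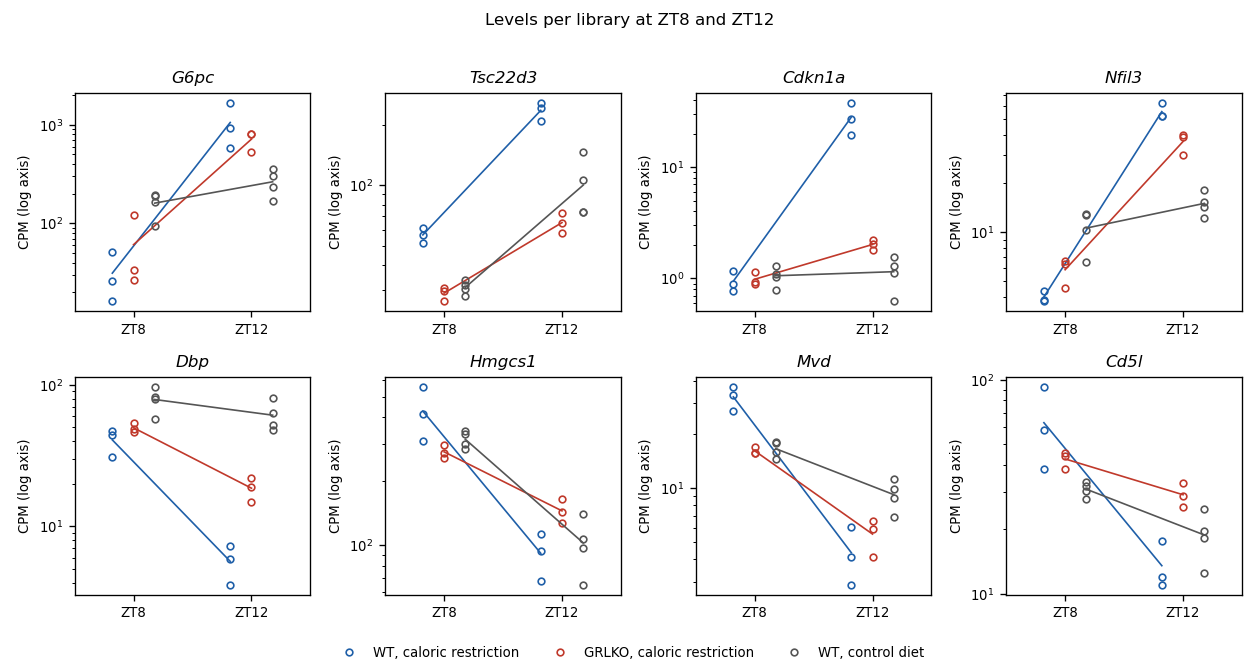
Levels of 8 genes at ZT8 and ZT12 in WT livers on caloric restriction (blue, n = 3 per time), GR LKO livers on caloric restriction (red, n = 3) and WT livers on control diet (grey, n = 4). The x axis gives the time and the y axis CPM on a log axis, each open circle is 1 library, and lines join the group means. In WT livers on caloric restriction the 3 livers of ZT12 lie apart from those of ZT8 in all 8 genes.

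The chaperone genes that passed the test all rose. Of the heat shock and chaperone list 31 of 36 genes were tested, and 21 were higher at ZT12 and 10 did not pass, with a median log2 fold change of 0.40 and a called share of 67.7%. Hspa8, the constitutive cytosolic HSP70, was at 566, 535 and 508 CPM at ZT8 and 1188, 1205 and 1237 CPM at ZT12 (log2 fold change 1.15, SE 0.10, edgeR adjusted p 0.00102), and Hsp90aa1, the inducible cytosolic HSP90, at 54.8, 48.2 and 58.7 CPM at ZT8 and 122, 145 and 134 CPM at ZT12 (log2 fold change 1.29, SE 0.11, edgeR adjusted p 0.00102). P4ha1, a collagen prolyl hydroxylase of the endoplasmic reticulum, was at 5.57, 5.37 and 5.68 CPM at ZT8 and 22.3, 18.4 and 16.5 CPM at ZT12 (log2 fold change 1.76, SE 0.14, edgeR adjusted p 0.000960). Hspa1b, the stress-induced HSP70, was low in both groups, at 1.60, 1.06 and 3.10 CPM at ZT8 and 5.16, 11.0 and 6.71 CPM at ZT12 (log2 fold change 1.96, SE 0.44, edgeR adjusted p 0.0229), and shares most of its sequence with Hspa1a, so that counts of the pair are uncertain. Hspa1b lost its call without ZT8 replicate 1 or 2 or ZT12 replicate 2 or 3, and its log2 fold change ran from 1.60 to 2.50 when 1 library was left out. For chaperones edgeR called 16, 15 and 14 higher without ZT8 replicates 1, 2 and 3 in turn, 15, 10 and 10 higher without ZT12 replicates 1, 2 and 3, and 9 higher without both libraries that stood apart. The median of the chaperones was 0.41 without ZT12 replicate 3 and 0.39 without both. Cirbp, a cold-inducible RNA-binding protein whose level falls as body temperature rises, was at 29.8, 41.8 and 39.2 CPM at ZT8 and 20.2, 11.8 and 15.0 CPM at ZT12 (log2 fold change -1.26, SE 0.21, edgeR adjusted p 0.00903). In the cold-inducible and splicing list 5 of 18 tested genes were higher and 3 lower (median 0.25, called share 44.4%), with Tra2a, which was at 0 at ZT8, above the median also at its lower bound. Srsf5 was lower too (log2 fold change -0.91). For the cold-inducible and splicing list edgeR called 3, 4 and 3 higher without ZT8 replicates 1, 2 and 3 in turn, 5, 3 and 4 higher without ZT12 replicates 1, 2 and 3, and 4 higher without both libraries that stood apart.

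In the unfolded protein response list 6 of 29 tested genes were higher and 2 lower (median log2 fold change 0.15, called share 27.6%). Creld2 rose by 0.87 and Herpud1 by 0.67 on the log2 scale, and Xbp1, a transcription factor of that response, was at 173, 146 and 177 CPM at ZT8 and 83.8, 126 and 96.4 CPM at ZT12 (log2 fold change -0.72, SE 0.16, edgeR adjusted p 0.0213). Xbp1 lost its call without ZT8 replicate 1 or 3 or ZT12 replicate 1 or 3, and its log2 fold change ran from -0.90 to -0.60 when 1 library was left out. Herpud1 lost its call without ZT8 replicate 3, and its log2 fold change ran from 0.55 to 0.75 when 1 library was left out. For the unfolded protein response edgeR called 4, 5 and 2 higher and 2, 2 and 1 lower without ZT8 replicates 1, 2 and 3 in turn, 4, 4 and 4 higher and 1, 2 and 1 lower without ZT12 replicates 1, 2 and 3, and 2 higher and 1 lower without both libraries that stood apart. Medians for that response were, in the same order, 0.18, 0.14, 0.14, 0.17, 0.09, 0.19 and 0.17. Of 44 tested ribosome biogenesis genes 10 were higher and 4 lower (median 0.26, called share 31.8%). For ribosome biogenesis edgeR called 4, 7 and 3 higher and 1, 4 and 1 lower without ZT8 replicates 1, 2 and 3 in turn, 5, 4 and 8 higher and 1, 1 and 2 lower without ZT12 replicates 1, 2 and 3, and 5 higher and 2 lower without both libraries that stood apart, with a median of 0.35. Of 72 cytosolic ribosome genes 1 was lower, Rpl3, against 9 at an unadjusted p under 0.05 and 5 called by DESeq2 (median 0.03, called share 1.39%). Rpl3 lost its call without ZT8 replicate 1, 2 or 3 or ZT12 replicate 3, and its log2 fold change ran from -1.36 to -0.83 when 1 library was left out. Without ZT12 replicate 1 edgeR called 3 genes of that list lower. Medians for the cytosolic ribosome were, without ZT8 replicates 1, 2 and 3, ZT12 replicates 1, 2 and 3 and both libraries that stood apart, -0.03, 0.09, 0.05, -0.02, 0.06, 0.08 and 0.14. Rpl3 was at 304, 339 and 299 CPM at ZT8 and 77.0, 189 and 171 CPM at ZT12. Its processed pseudogene Rpl3-ps1, which was 1 of the 10 largest rises, was at 0, 0 and 0.263 CPM at ZT8 and 286, 142 and 137 CPM at ZT12. The sum of both was 304, 339 and 299 CPM at ZT8 and 363, 331 and 307 CPM at ZT12, with groups that overlapped, so that the counts of both genes, and with them the fall of Rpl3, are uncertain. None of the 33 proteasome genes was called by edgeR, 5 had an unadjusted p under 0.05 and DESeq2 called 2 (median -0.08, called share 0%), while edgeR called 1 lower without ZT8 replicate 2 or ZT12 replicate 1. Medians for the proteasome were, without ZT8 replicates 1, 2 and 3, ZT12 replicates 1, 2 and 3 and both libraries that stood apart, -0.09, -0.10, -0.03, -0.11, -0.04, -0.06 and -0.07. Oxidative phosphorylation had 7 of 59 tested genes higher (median 0.16, called share 11.9%). For oxidative phosphorylation edgeR called 4, 0 (14 unadjusted) and 0 (15 unadjusted) higher without ZT8 replicates 1, 2 and 3 in turn, 1, 1 and 0 (12 unadjusted) higher without ZT12 replicates 1, 2 and 3, and 0 (7 unadjusted) higher without both libraries that stood apart. With all 6 libraries DESeq2 called 16 of its genes. Autophagy and lysosome genes had 6 higher and 2 lower of 47 tested (median 0.06, called share 17.0%), among them Bnip3, a mitophagy receptor, at 382, 355 and 313 CPM at ZT8 and 579.9, 495 and 569 CPM at ZT12 (log2 fold change 0.62, SE 0.12, edgeR adjusted p 0.0119). For autophagy and lysosomes edgeR called 2, 4 and 2 higher and 1, 2 and 1 lower without ZT8 replicates 1, 2 and 3 in turn, 4, 3 and 4 higher and 1, 0 (2 unadjusted) and 0 (3 unadjusted) lower without ZT12 replicates 1, 2 and 3, and 0 (9 unadjusted) higher and 0 (3 unadjusted) lower without both libraries that stood apart. Medians for autophagy and lysosomes were, in the same order, 0.09, 0.04, 0.06, 0.06, 0.05, 0.08 and 0.05. DESeq2 called 7 higher and 3 lower with all 6 libraries. The called shares of autophagy and of oxidative phosphorylation were below the 21.0% of all genes tested.

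The acute phase and complement list had 2 of 45 tested genes higher, Il6ra and Crp (median log2 fold change -0.08, called share 4.44%). Crp lost its call without ZT8 replicate 2 or 3 or ZT12 replicate 1, 2 or 3, and its log2 fold change ran from 0.33 to 0.44 when 1 library was left out. For the acute phase edgeR called 3, 4 and 1 higher without ZT8 replicates 1, 2 and 3 in turn, 2, 1 and 1 higher without ZT12 replicates 1, 2 and 3, and 3 higher without both libraries that stood apart. Medians for the acute phase were, in the same order, -0.13, 0.30, -0.22, -0.08, -0.08, -0.07 and 0.27. In the immediate early and growth arrest list 8 of 32 tested genes were higher and 2 lower (median 0.26, called share 31.2%), with Rgs16, a regulator of G protein signaling, not called at -1.11, Btg1, an antiproliferative factor, at 1.25 and Junb at -1.21 on the log2 scale. Junb lost its call without ZT8 replicate 2 or 3 or ZT12 replicate 1, 2 or 3, and its log2 fold change ran from -1.48 to -1.04 when 1 library was left out. Rgs16 was at 522, 99.5 and 285 CPM at ZT8 and 84.1, 155 and 185 CPM at ZT12. Rgs16 had a log2 fold change of -0.46, -1.53 and -1.15 without ZT8 replicates 1, 2 and 3 in turn, -0.85, -1.18 and -1.35 without ZT12 replicates 1, 2 and 3, and -1.77 without both libraries that stood apart, and it was called without ZT8 replicate 2 alone. For immediate early genes edgeR called 4, 6 and 5 higher and 1, 3 and 0 (3 unadjusted) lower without ZT8 replicates 1, 2 and 3 in turn, 4, 3 and 5 higher and 0 (4 unadjusted), 0 (3 unadjusted) and 0 (3 unadjusted) lower without ZT12 replicates 1, 2 and 3, and 5 higher and 2 lower without both libraries that stood apart. Xenobiotic receptors and enzymes had 8 higher and 2 lower of 40 tested (median 0.11, called share 25.0%). Fmo5, a flavin monooxygenase, was at 1150.2, 1525 and 968 CPM at ZT8 and 4467, 3555 and 4084 CPM at ZT12 (log2 fold change 1.71, SE 0.19, edgeR adjusted p 0.00259). For xenobiotic receptors and enzymes edgeR called 6, 6 and 4 higher and 1, 2 and 2 lower without ZT8 replicates 1, 2 and 3 in turn, 4, 3 and 3 higher and 2, 1 and 2 lower without ZT12 replicates 1, 2 and 3, and 3 higher and 1 lower without both libraries that stood apart. Medians for xenobiotic genes were, in the same order, 0.24, -0.06, 0.18, 0.10, 0.16, 0.08 and -0.05, and ZT8 replicate 2 was low in Cyp3a11. Of 19 tested cell cycle genes 2 were higher and 2 lower (median -0.12, called share 21.1%). Ccnd1, the cyclin that starts the cycle from rest, was at 24.8, 24.9 and 46.2 CPM at ZT8 and 6.20, 7.74 and 10.6 CPM at ZT12 (log2 fold change -1.98, SE 0.30, edgeR adjusted p 0.00669), and Wee1, a kinase that delays mitosis and is also driven by the clock, changed by -0.86 on the log2 scale. For the cell cycle edgeR called 1, 1 and 1 higher and 2, 2 and 2 lower without ZT8 replicates 1, 2 and 3 in turn, 0 (3 unadjusted), 1 and 1 higher and 2, 2 and 2 lower without ZT12 replicates 1, 2 and 3, and 0 (5 unadjusted) higher and 1 lower without both libraries that stood apart. Medians for the cell cycle were, in the same order, -0.11, -0.01, -0.07, -0.01, -0.17, -0.13 and -0.11. The called shares of the acute phase, xenobiotic and cell cycle lists were below or near the 21.0% of all genes tested.

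All 8 markers of Kupffer and myeloid cells fell. The calls on Adgre1 (2 of 6 fits), Marco (2 of 6) and Vsig4 (4 of 6) were not made in every fit that left out 1 library. The median log2 fold change was -1.93, and none of the 8 was at 0 in any of the 6 libraries. Cd5l, a secreted macrophage protein, was at 38.2, 92.8 and 58.0 CPM at ZT8 and 11.0, 17.6 and 12.0 CPM at ZT12 (log2 fold change -2.25, SE 0.34, edgeR adjusted p 0.00656), and Clec4f, a lectin of Kupffer cells, at 40.6, 70.7 and 52.3 CPM at ZT8 and 13.4, 23.1 and 17.0 CPM at ZT12 (log2 fold change -1.64, SE 0.26, edgeR adjusted p 0.00721). The most abundant of the 8 was Cd5l in ZT8 replicates 2 and 3 and Clec4f in the other 4 libraries. The summed level was 161, 373 and 215 CPM at ZT8 and 51.3, 84.3 and 60.8 CPM at ZT12, so that the lowest ZT8 liver was still above the highest ZT12 liver. Without ZT8 replicate 2, the liver with the highest sum, 7 of the 8 were called and the median was -1.50. Without ZT12 replicate 1 edgeR called 5 of 8. Without ZT12 replicate 3 it was 5 of 8 with a median of -1.90, and without both libraries 5 of 8 with a median of -1.44. Marco, a scavenger receptor that was at 39.2 CPM in ZT8 replicate 2, fell by 3.02 on the log2 scale with all libraries. Marco lost its call without ZT8 replicate 3 or ZT12 replicate 1, 2 or 3, and its log2 fold change ran from -3.47 to -1.70 when 1 library was left out. In bulk tissue fewer cells of a type and less RNA per cell cannot be told apart. Over the other times the sums were 159 to 209 CPM at ZT0, 145 to 298 CPM at ZT4, 124 to 167 CPM at ZT16 and 110.1 to 173 CPM at ZT20.

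In GR LKO livers the same sums were 194, 152 and 178 CPM at ZT8 and 145, 112 and 175 CPM at ZT12, with 2 of 8 markers lower (median -0.21). The interaction of time and genotype called none of the 8 by edgeR, while all 8 had an unadjusted p under 0.05 and DESeq2 called 7 (median interaction -1.63). On control diet the sums were 135, 135, 130 and 128 CPM at ZT8 and 88.4, 68.9, 60.9 and 93.0 CPM at ZT12, with 7 of 8 lower (median -0.73), and the interaction of time and diet called 1, Cd5l (-1.53). Of 6 endothelial markers 1 was higher, Clec4g (0.34), and 5 did not pass. Clec4g lost its call without ZT8 replicate 1, 2 or 3 or ZT12 replicate 1 or 3, and its log2 fold change ran from 0.30 to 0.41 when 1 library was left out. None of 6 stellate cell and fibroblast markers was called by edgeR, with 2 at an unadjusted p under 0.05 and 1 called by DESeq2, while edgeR called 1 higher without ZT8 replicate 2 and 1 lower without ZT12 replicate 2. On control diet 4 of the 6 endothelial markers were lower (median log2 fold change -0.81), and the interaction of time and diet was called for 3, all above 0 (median 0.71). Of the stellate cell and fibroblast markers 4 of 6 were lower on control diet (median -0.65), and 2 interactions were called, both above 0 (median 0.59). Over all genes tested, 15.5% were called on control diet and 13.7% in GR LKO livers. The interaction with diet was called for 12.1% of genes and that with genotype for 0.839%. Of 4 tested cholangiocyte markers Spp1, which encodes osteopontin, was lower (-1.23), and 1 of the 5 was not tested. Spp1 lost its call without ZT12 replicate 1, 2 or 3, and its log2 fold change ran from -1.41 to -0.82 when 1 library was left out. None of 5 tested erythrocyte markers and none of 3 tested adipocyte markers was called by edgeR or DESeq2, with 1 of each list at an unadjusted p under 0.05. Without ZT12 replicate 3 edgeR called 1 erythrocyte marker higher, and without ZT8 replicate 2 or ZT12 replicate 1 it called 1 adipocyte marker lower. No lymphocyte or neutrophil marker passed the filter on low counts in edgeR, while DESeq2, with a filter of its own, called 2 neutrophil markers lower. The 5 neutrophil markers summed to 0, 0 and 0.0550 CPM at ZT12. The part that myeloid RNA has in the changes of other genes was not tested.

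Among the 10 largest rises and the 10 largest falls with separated groups and at least 5 CPM in 1 group, several transcripts were at or near 0 in 1 group. 4 of the rises and 1 of the falls were predicted genes, pseudogenes or IDs without a symbol. Tra2a, a splicing regulator, was at 0 in all 3 ZT8 livers and at 6.75, 11.6 and 13.5 CPM at ZT12, at least 64.2-fold higher against a floor of 3 counts per library. Bcar1, an adaptor of integrin signaling, was at 19.4, 4.42 and 15.0 CPM at ZT8 and at 0 in all 3 ZT12 livers, at least 62.5-fold lower against the same floor. Among all genes measured, 245 had at most 3 counts in one library and at least 100 in another of the same group, 158 of them were tested and 20 called. Bcar1, Cox6b2, Gvin1, Retreg2 and Rpl3-ps1 are among these genes, as are Clock and Hsph1, so that their levels and fitted changes are uncertain. Without such genes 2630 genes were called. Instability was looked for only within a group, so a gene at 0 in a whole group, as Tra2a was at ZT8, can escape it. The size of the change of Tra2a is thus also uncertain. Of the other genes by this rule, Fabp5, a fatty acid binding protein, was at 29.0, 60.0 and 32.4 CPM at ZT8 and 3.79, 3.77 and 4.68 CPM at ZT12 (log2 fold change -3.33, SE 0.31, edgeR adjusted p 0.00148), and Prss8, a membrane-bound serine protease, at 20.3, 12.3 and 30.0 CPM at ZT8 and 3.31, 2.33 and 2.31 CPM at ZT12 (log2 fold change -3.00, SE 0.35, edgeR adjusted p 0.00275). A1bg, a plasma glycoprotein, was lower by a log2 fold change of -3.21 and Fzd6, a Wnt receptor, by -3.38. Fzd6 lost its call without ZT8 replicate 3 or ZT12 replicate 2, and its log2 fold change ran from -5.11 to -2.89 when 1 library was left out. The others by this rule were Mup12 (log2 fold change 4.00), Cox6b2 (4.87), Gvin1 (-3.88) and Retreg2 (-3.86), of which Mup12 and Gvin1 belong to gene families whose members share sequence. Mup12 lost its call without ZT8 replicate 2 or 3 or ZT12 replicate 2 or 3, and its log2 fold change ran from 2.88 to 5.15 when 1 library was left out. Gvin1 lost its call without ZT8 replicate 1, 2 or 3 or ZT12 replicate 2 or 3, and its log2 fold change ran from -11.40 to -3.24 when 1 library was left out. Retreg2 lost its call without ZT8 replicate 1, 2 or 3 or ZT12 replicate 1 or 3, and its log2 fold change ran from -11.35 to -3.22 when 1 library was left out. Gvin1 and Retreg2 were at 0 in 2 of the 3 ZT12 livers, and fitted folds of genes at 0 depend on the prior count.

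The change from ZT8 to ZT12 differed between genotypes for 104 of 12393 genes tested (0.839%), with 49 interactions above and 55 below 0. At an unadjusted p under 0.05 there were 1821, and DESeq2 called 462. In GR LKO livers alone 1650 of 12020 genes (13.7%) were called. Of the 2457 genes called in WT livers that could be tested in GR LKO livers, 2260 had a log2 fold change of the same sign there, called or not, 921 were called there with the same sign and 4 with the opposite sign. Cdkn1a was at 0.886, 0.929 and 1.13 CPM at ZT8 and 1.803, 2.04 and 2.22 CPM at ZT12 in GR LKO livers, so that it rose there too (log2 fold change 1.03, edgeR adjusted p 0.0341), and by less than in WT livers (interaction 3.84, SE 0.37, edgeR adjusted p 0.00242). Tsc22d3 was at 30.7, 26.4 and 29.8 and 57.7, 72.6 and 64.8 CPM, so that it rose in both genotypes and by less in GR LKO livers (interaction 0.89, SE 0.15, edgeR adjusted p 0.0279). Klf9, a Krüppel-like factor, was the third member of the GR target list with a called interaction (0.81), though its own change in WT livers was not called (0.27), and in GR LKO livers it was lower at ZT12 (-0.52). Nfil3 (interaction 1.17) and Bud13, a splicing factor (2.02), rose in GR LKO livers too, from 4.94, 5.11 and 5.77 to 15.2, 18.2 and 17.4 CPM for Bud13, and by less than in WT livers. G6pc was not called (interaction 1.52, SE 0.83, edgeR adjusted p 0.430), nor were Fkbp5 (0.63) and Tat (0.62).

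In the cholesterol list 5 of 27 interactions with genotype were called (18.5%), all below 0, among them Fdft1, Lss, Hsd17b7 and Sc5d. Lss was at 127, 127 and 111 CPM at ZT8 and 75.0, 80.3 and 77.9 CPM at ZT12 in GR LKO livers, against 218, 185 and 192 CPM at ZT8 and 64.9, 51.8 and 62.0 CPM at ZT12 in WT livers (interaction -1.09, SE 0.14, edgeR adjusted p 0.00826). The list's median log2 fold change was -0.60 in GR LKO livers, where 19 genes were lower. In the GR target list 18 genes were higher and 2 lower in GR LKO livers (median 0.59), and the median interaction was 0.36. Apol9a (-2.16), Cebpe (-1.93) and Slc45a3 (2.21) had interactions of both signs, and each was apart in WT livers. The number of interactions called ran from 34 to 146 over the fits that left out 1 library, and without ZT8 replicate 2 and ZT12 replicate 3 it was 93.

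The change differed between diets for 1484 of 12241 genes (12.1%), 751 above and 733 below 0. At an unadjusted p under 0.05 there were 3357, and DESeq2 called 1871. On control diet alone 1780 of 11466 genes (15.5%) were called. Of 2419 genes called on caloric restriction and tested on control diet, 1800 had a log2 fold change of the same sign there, called or not, 555 were called there with the same sign and 61 with the opposite sign. Cdkn1a was at 1.02, 1.11, 0.793 and 1.31 CPM at ZT8 and 1.30, 1.115, 1.56 and 0.624 CPM at ZT12 on control diet (interaction 4.76, SE 0.43, edgeR adjusted p 9.30e-05). G6pc (4.34), Pdk4 (3.98), Igfbp1 (3.73) and Nfil3 (3.27) also had called interactions above 0. Lpin1 went the other way, with a log2 fold change of 3.18 on control diet against 1.15 on caloric restriction (interaction -2.04, SE 0.55, edgeR adjusted p 0.0300). Per1 and Per2 rose on control diet (log2 fold changes 1.115 and 1.26) and were not called on caloric restriction, and the difference was called for both (interaction -1.08 and -1.22). Tsc22d3 and Tat rose on both diets, and their interactions were not called (0.35 and 0.61). In the insulin and FoxO list 11 of 39 interactions were called (28.2%) and all were above 0, among them Irs1, Irs2 and Foxo1. By called interactions above and below 0, the GR target list had 7 above and 4 below (of 39, 28.2%), the core clock 3 above and 6 below (of 23, 39.1%) and the cholesterol list 1 above and 11 below (of 27, 44.4%). Gluconeogenesis had 4 above and 3 below (of 21, 33.3%) and lipogenesis 1 above and 4 below (of 23, 21.7%). The shares of amino acid catabolism, with 5 above and 1 below (of 35, 17.1%), of chaperones, with 6 called (of 34, 17.6%), and of fatty acid oxidation, with 6 called (of 35, 17.1%), were near the 12.1% of all genes tested. Without ZT8 replicate 3 on caloric restriction 973 interactions were called.

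The promoters of clock and chaperone genes are shown because many genes of both lists were called. Sequences are from RefSeq (GRCm38.p6), and the 250 bases before each gene's start were searched on both strands. The E-box (CACGTG), to which CLOCK and BMAL1 bind, was present in 5 of the 19 core clock promoters in the table (26.3%) and in 1634 of all 27025 promoters (6.05%). It was also present in 6 of 33 GR target promoters (18.2%), 3 of 19 of the cholesterol list (15.8%) and 1 of 28 of the chaperone list (3.57%). The D-box (TTATGTAA or TTACGTAA), the site of DBP and NFIL3, was present in 1 of the 19, Per3, in 1 of the 33 of the GR target list and in 260 of all (0.962%). Of the genes with an E-box Cry1 was higher at ZT12, Tef, Bhlhe41 and Ciart were lower, and Per1 was not called. The windows lie at chr10:85185089-85185134, minus strand for Cry1, chr15:81802526-81802571, plus strand for Tef, chr6:145865548-145865593, minus strand for Bhlhe41 and chr3:95882319-95882364, minus strand for Ciart, the first of its 3 matches. Each window is upstream of the gene's start in RefSeq, and capitals mark the E-box. By the GENCODE coordinates Bhlhe41 starts at chr6:145865558, so that the last bases of its window lie within the gene.
Cry1: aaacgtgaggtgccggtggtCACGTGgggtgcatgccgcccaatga
Tef: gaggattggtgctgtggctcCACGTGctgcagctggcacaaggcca
Bhlhe41: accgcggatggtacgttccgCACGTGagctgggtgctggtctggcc
Ciart: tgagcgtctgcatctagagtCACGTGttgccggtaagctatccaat

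A short stretch of the heat shock element, the site of HSF1, was searched as GAANNTTC or TTCNNGAA. It was present in 8 of 28 chaperone promoters in the table (28.6%) and in 3489 of all 27025 (12.9%). It was in 3 of 33 GR target promoters (9.09%), 2 of 19 of the cholesterol list and none of the 19 of the core clock. Of the 8, Hspa1b, Hspe1, Hsph1, Dnaja1 and Cct5 were higher at ZT12, Fkbp4 and Hspb1 were not called, and Hspa1a was not tested. Hspa1b, Hspe1, Hsph1 and Cct5 each lost the call in some fits that left out 1 library, and Dnaja1 in none. The windows lie at chr17:34959315-34959362, minus strand for Hspa1b, and chr1:55088039-55088086, plus strand for Hspe1 (the first of its 3 matches). Those of Cct5 and Dnaja1 lie at chr15:31601853-31601900, minus strand, and chr4:40722324-40722371, plus strand. Capitals mark the matched letters. The window of Hspa1a holds the same bases as that of Hspa1b. For the glucocorticoid response element only 1 exact form of its pair of half-sites was searched, with a fixed spacing and no mismatch allowed. That form was in none of 33 GR target promoters and in 1 of all 27025 (0.0037%). A form this rare cannot set the GR target list apart from other genes, and pairs with other letters were not searched. A match is a description of letters, and its absence says only that they are not in this window.
Hspa1b: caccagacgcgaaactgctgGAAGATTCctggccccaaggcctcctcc
Hspe1: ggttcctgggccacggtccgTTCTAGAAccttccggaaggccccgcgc
Cct5: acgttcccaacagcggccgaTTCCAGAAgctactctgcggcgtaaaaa
Dnaja1: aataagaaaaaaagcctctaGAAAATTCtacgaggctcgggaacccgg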

How the data were processed

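PolyA RNA of mouse liver was sequenced, and estimated counts per gene were deposited by the authors, whose tools were FastQC, MultiQC, Salmon, tximport and DESeq2, with mm10 named in the submitters' processing notes. The transcript annotation is not given in the sources used here. Estimated counts were rounded to whole numbers. R 4.3.3 was used with edgeR 4.0.16, DESeq2 1.42.0 and limma 3.58.1. Genes passing filterByExpr at a minimum count of 10 were scaled by TMM and tested with edgeR (glmQLFit and glmQLFTest), and a gene was called at an adjusted p (Benjamini-Hochberg, over all genes tested) under 0.05. A fit held only the groups it compares, and interactions were differences of group means. Displayed CPM used TMM over 32 libraries. The tests were tested on simulated data, where the share of false calls was above the threshold for ZT12 against ZT8 in WT livers on either diet and for the interaction with diet. Of 27654 gene IDs 27244 matched a symbol, and gene coordinates are from GENCODE vM21 (GRCm38, mm10).

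The members and gene lists were chosen with earlier results of these data known. Genes were named by rule: the 10 largest rises and falls called with at least 5 CPM in 1 group and no overlap, up to 3 called genes per direction in each list, a fixed set, and the 5 largest interactions per direction. Genes named outside the rule were chosen after their values were seen: Adgre1, Alb, Amy2a5, Btg1, Ccng2, Cct5, Cd5l, Ciart, Clec4f, Clec4g, Cyp3a11, Dnaja1, Fdft1, Fkbp4, Hnf4a, Hsd17b7, Hsp90aa1, Hspa1a, Hspa8, Hspb1, Hspe1, Klf9, Lss, Per3, Ppargc1a, Sc5d, Spp1, Sqle, Srebf2, Tef and Vsig4.

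Alternatives were DESeq2, other scalings and filters, a replicate block, leaving out each library, and, chosen after seeing the data, leaving out both libraries that stood apart and genes with unstable counts. Not used were the tables of a separate diet comparison at ZT12 and of a corticosterone experiment, the latter also as VST values. Some genes are not reported here.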

Additional observations from a re-analysis of the deposited data

Results flagged for a closer look

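The test of the difference between genotypes in the change from ZT8 to ZT12 (edgeR) is given here for the 5 largest called interactions in each direction and for the fixed set of genes, with log2 interactions above 0 where the change was more positive in WT livers. The values were 9.59 for Tra2a, 3.84 for Cdkn1a, 2.21 for Slc45a3, 2.02 for Bud13, 1.94 for Tcim and 0.89 for Tsc22d3. They were -10.76 for Bcar1, -8.79 for Hsph1, -2.16 for Apol9a, -1.93 for Cebpe and -1.93 for Sept11. Hsph1 was at 0 in all 3 GR LKO livers of ZT8, and Tra2a and Bcar1 were at 0 in a WT group. Fitted folds of such genes depend on the prior count. Bcar1 and Hsph1 are also among the genes whose estimated counts were unstable, so that their values are uncertain. Other named genes passed the same test, among them Nfil3 (1.17), Fmo5 (1.14), Sult1d1 (0.91) and Tra2b (0.79).

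Over genes chosen in the same way, the test between diets in WT livers gave positive values for Elovl3 (12.73), ENSMUSG00000074828 (9.90), Tra2a (8.67), Arntl (4.93), Cdkn1a (4.76), G6pc (4.34) and Igfbp1 (3.73), and for Irs1 (1.67), Irs2 (1.75), Foxo1 (0.66), Angptl4 (1.28) and Ppara (0.88). It gave negative values for Bcar1 (-9.90), Gm7666 (-8.29), Retreg2 (-3.32), Mthfd1l (-3.24), Fabp5 (-3.21), Srebf1 (-2.26), Dbp (-2.50), Per1 (-1.08), Per2 (-1.22) and Cirbp (-1.0002). Against a floor of 3 counts per library, on caloric restriction Elovl3 was at least 79.0-fold higher and ENSMUSG00000074828 at least 197-fold higher at ZT12, and Gm7666 at least 12.2-fold lower. Bcar1, Elovl3, ENSMUSG00000074828, Gm7666 and Retreg2 had unstable estimated counts, and their values are uncertain. The value of Elovl3 rests on 1 library: it was at 0.482, 36.4 and 2.37 CPM at ZT12. Gm7666 was at 1.65, 0.851 and 5.05 CPM at ZT8, so that its bound depends largely on ZT8 replicate 3.

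Irs1 in livers on control diet at ZT12 had 1 sample far from the others, with a gap to its nearest neighbour of 0.912 of the whole range. This was 1 of 64 groups looked at, and chance gives about 1 in 20 such groups.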

How the results depend on the processing

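The 2485 calls in WT livers on caloric restriction became 1366 with a replicate block and 951 without ZT8 replicate 2 and ZT12 replicate 3, and 4060 in 1 fit of all 36 libraries on caloric restriction. Leaving out 1 library gave 1237 to 1813, with 1237 without ZT8 replicate 3, and 1605, 1378 and 1336 without ZT12 replicates 1, 2 and 3. Upper-quartile scaling called 2508, of which 40.9% were higher against 49.4%. DESeq2, RLE scaling, other count filters, and leaving out the 50 most abundant genes or those with unstable counts gave counts within 1.5 times. The replicate numbers do not pair the samples: deviations of ZT8 and ZT12 libraries of the same number correlated at -0.10, -0.08 and -0.04, and no sample correlated best with its own number.

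The 104 interactions with genotype became 462 by DESeq2, 169 at a minimum count of 50 and 29 with the replicate block, and 34 to 146 without 1 library. They were 58 and 69 without WT ZT8 replicates 1 and 3, 64 and 48 without WT ZT12 replicates 2 and 3, 42, 39 and 34 without GR LKO ZT8 replicates 1, 2 and 3, and 52 and 55 without GR LKO ZT12 replicates 1 and 3. The 1484 interactions with diet became 785 with the replicate block and 973 to 1459 without 1 library, the lowest without ZT8 replicate 3 on caloric restriction. The 1650 calls in GR LKO livers became 526 to 1605, with 558, 1031 and 526 without ZT8 replicates 1, 2 and 3, and 1079 and 768 without ZT12 replicates 1 and 3. The 1780 on control diet became 952 to 1708, with 1095, 952 and 1033 without ZT8 replicates 2, 3 and 4, and 1137 without ZT12 replicate 3. Fits without a library hold fewer samples, and the cause of the other shifts was not tested.

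Over the named genes 1708 values kept direction and side of the threshold, 290 no longer passed, 2 newly passed (Cyp7a1 and Rgs16) and 10 changed sign, none of the last called. The log2 fold change of Nr3c1 was 0.0590 without ZT8 replicate 1 and 0.00131 without ZT12 replicate 2 (range without 1 library -0.11 to 0.06). The log2 fold change of Per1 was -0.0761, -0.0359 and -0.0601 without ZT8 replicate 1, ZT8 replicate 3 and ZT12 replicate 1 (-0.08 to 0.26), and -0.0128 with upper-quartile scaling. The log2 fold change of Per2 was -0.125 without ZT8 replicate 3 (-0.13 to 0.16) and -0.00143 with upper-quartile scaling. That of Bcl6 was 0.291 without ZT8 replicate 1 (-1.51 to 0.29) and that of Mthfd1l -0.0206 without ZT12 replicate 2 (-0.02 to 0.75). Depth limits genes of a few counts per library, such as Arntl at ZT8 and Fgf21.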
